A study of Drosophila melanogaster with 9 samples.

Results

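Metastatic tumors carrying Apc-Ras-Sna clones (TMets) were compared between the first and the second round of serial transplantation in adult *Drosophila melanogaster* hosts, T1 and T2. The comparison takes the 3 arrays labelled T1 and the 3 labelled T2, 6 of the 9 arrays of the series, and the other 3 come from round T10. All 18769 probe sets that are not array controls were tested, of 18952 on the array. The tumors of every round shared 1 genotype: MARCM clones in the adult midgut, made with a heat-shock flippase on FRT82B, were mutant for Apc2 (N175K) and Apc (Q8) and expressed GFP, oncogenic RasV12 and wild-type Snail under esg-Gal4, with a UAS-Luciferase transgene in the stock. The esg driver is active in intestinal stem cells and their immediate daughters, so the transgenes are expressed in clone cells in which that driver is active. Abdominal metastases of 3 donor females, about 3 weeks old, were cut into pieces and passed into young yw females, and at each round part of the GFP-positive mass was used for RNA. No round holds untransplanted metastases or normal gut, and the rounds differ in time as well as in number of passages.

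Each array was hybridized with 8 µg of labelled cDNA, made from 25 ng of RNA by 17 cycles of amplification. The deposited values are log2 expression values from RMA, a method that subtracts background, normalizes and sums the probes of a probe set, so that a difference of 1 is a 2-fold difference. The labels name the samples technical replicates 1 to 3, so the p-values below measure the spread between these samples, which may be technical. The labels place the hosts at 25 °C, while the methods of the study give another temperature. Array medians lay between 6.49 and 6.73, and the difference between the 3-prime and 5-prime control probe sets of Actin, an index of RNA integrity, was 0.60 to 0.64 in T1 and 0.54 to 0.69 in T2. In bulk tumor RNA, fewer cells of a type and less RNA per cell cannot be told apart, and each mass may hold host tissue.

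The adult fly midgut is renewed by stem cells that express esg and the Notch ligand Delta. Notch signaling in their daughters drives most of them to become enterocytes, the absorptive cells that secrete digestive enzymes and are sealed by smooth septate junctions, while daughters with low Notch activity become enteroendocrine cells, which express pros and release peptide hormones from dense-core vesicles. Snail represses E-cadherin and drives epithelial cells towards a mesenchymal state.

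The lineage markers were high in the tumors of both rounds. The log2 value of esg was 11.23, 10.51 and 10.92 in T1 replicates 1, 2 and 3 and 11.04, 10.56 and 10.46 in T2 replicates 1, 2 and 3. The value of sna was 11.27, 10.11 and 10.31 in T1 and 10.50, 10.04 and 8.73 in T2. Whether its probe set reads the transgene, the endogenous gene or both was not tested. The progenitor factor Sox21a stood at 12.21, 11.74 and 12.06 in T1 and at 12.09, 11.64 and 9.53 in T2. The values of the 2 rounds overlapped for all of these genes, and T2 replicate 3 was the lowest of the 6 arrays for each. Ras85D, Apc and Apc2 were not analysed here, because the annotation used gives them no probe set of their own.

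The 3 arrays of T2 did not form 1 group. Taken across probe sets, which give no independent replication, T2 replicate 3 correlated at 0.932 and 0.95 with the other T2 arrays and at 0.964, 0.965 and 0.984 with the T10 arrays. T1 replicate 3 correlated at 0.977 and 0.972 with the other T1 arrays and at 0.981 and 0.984 with T2 replicates 1 and 2. Thus one array of T1 lay nearer to the first T2 arrays than to its own round, and one array of T2 lay nearer to T10. T2 replicate 3 departed by over 2 log2 units from the mean of the other T2 arrays at 741 probe sets, the same count for T1 replicate 3 against its round was 191, and the lowest count, 20, was that of T1 replicate 1. Fitted differences are therefore given with and without T2 replicate 3, and the effect of T1 replicate 3 is given where a gene named below passed without it. T1 replicate 3 was singled out after these correlations had been seen. Leaving out the T1 array nearest to T2 favours wider differences, so passes without it are a description and not a test result.

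**Figure D1:**
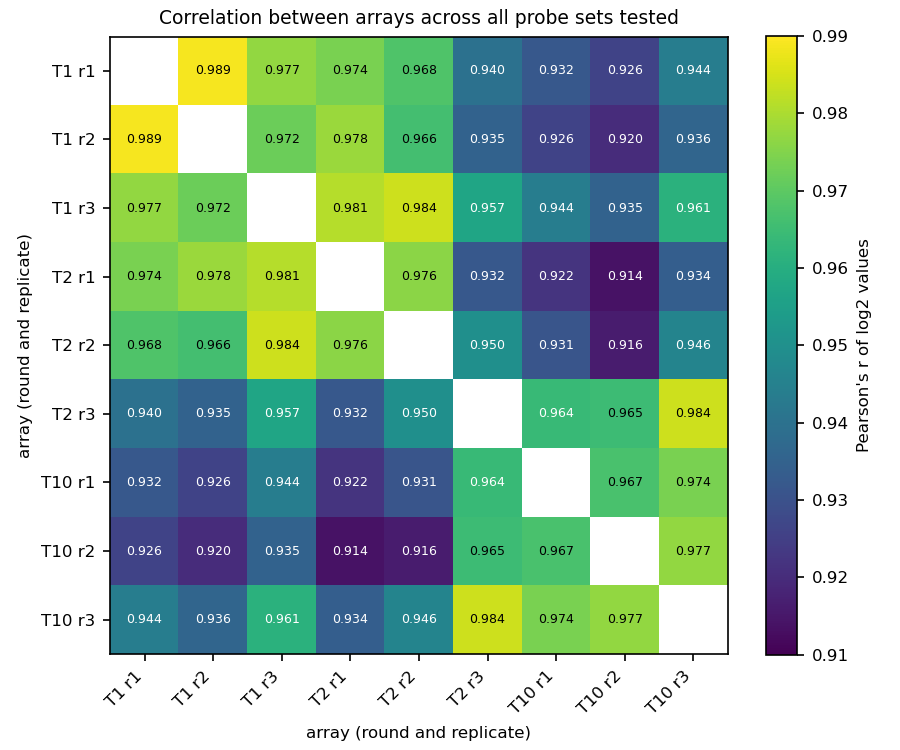
Pearson's r of log2 values across 18769 probe sets for each pair of arrays; both axes list the 9 arrays by round and replicate (r), and colour gives r. T1 r3 is closest to T2 r2 (0.984) and T2 r3 is closest to T10 r3 (0.984), while T1 r1 and T1 r2 share the highest value of all pairs, 0.989.

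Very few single genes separated the rounds beyond the spread between arrays. In limma's moderated test on all 9 arrays, with the Benjamini-Hochberg adjustment over 18769 probe sets, 0 probe sets (0%) were higher in T2 and 1 (0.00533%) was lower at an adjusted p under 0.05. At an unadjusted p under 0.05, 377 probe sets (2.01%) were higher and 779 (4.15%) lower. Without T2 replicate 3 the counts at the adjusted threshold were again 0 (0%) higher and 1 (0.00533%) lower, and at the unadjusted one 573 (3.05%) higher and 430 (2.29%) lower. Counts were far larger when T1 replicate 3 was left out: 9 probe sets (0.048%) higher and 25 (0.133%) lower with T2 replicate 3 in the fit, and 90 (0.48%) higher and 36 (0.192%) lower without it. Over the 11982 genes with a named probe set, the 3 T2 arrays lay above the 3 T1 arrays for 308 (2.57%) and below them for 765 (6.38%), and T2 replicates 1 and 2 lay above the 3 T1 arrays for 908 (7.58%) and below them for 1395 (11.6%). These shares are the background for the gene lists below. The lists were chosen with earlier results of these data known, so their counts are descriptions and not tests. Centring each array on its median moved the median difference over all probe sets from -0.03 to -0.14. It turned the first pair of counts into 157 above and 1294 below and the second into 651 above and 1743 below. Quantile normalization gave 370 above and 729 below for the first pair and 1009 above and 1372 below for the second. More genes lay below than above under each scaling, but the size of the split depended on the scaling.

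The gene that passed was Lim3, which encodes a LIM-homeodomain transcription factor known for specifying motor neurons. Its log2 value was 8.04, 8.13 and 7.67 in T1 and 3.63, 3.55 and 3.27 in T2. All T2 arrays were thus more than 4 log2 units below the lowest T1 array, and T2 replicate 3, apart elsewhere, was no exception. The means were 7.95 ± 0.244 (SD, n = 3) and 3.48 ± 0.189 (SD, n = 3), a log2 change of -4.46 (standard error 0.16, limma adjusted p = 7.35e-05). Leaving out T2 replicate 3 gave a change of -4.36 (limma adjusted p = 0.000527). In T10 the gene stood at 3.60, 3.31 and 3.48, and these values, like those of T2, lie below 4.18, the 10th percentile of all values, where the array has little range left for a further fall. With every value under that percentile raised to it, the change of Lim3 was -3.77 (standard error 0.11, limma adjusted p = 0.00017), so its size depends on how the dim T2 values are read. The call was lost when all arrays numbered 1 or all numbered 2 were left out (limma adjusted p = 0.152 and 0.142), at log2 changes of -4.49 and -4.41, and Lim3 was not tested when the dimmer 50% of probe sets were removed.

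Among genes with no overlap between the rounds and an unadjusted limma p under 0.01, the next largest negative difference was that of sens-2. It is a zinc finger gene related to senseless. The values of this gene were 7.62, 7.44 and 6.53 in T1 and 4.48, 4.26 and 3.35 in T2. The rounds did not overlap, with a gap of about 2 log2 units, but the log2 difference of -3.17 (standard error 0.36) missed the threshold (limma adjusted p = 0.148), as did that of -2.83 without T2 replicate 3 (limma adjusted p = 0.0868). It passed without T1 replicate 3, the lowest T1 array (log2 change -3.50, limma adjusted p = 0.0254), and without that array and T2 replicate 3 (-3.16, limma adjusted p = 0.00391). The list of LIM-homeodomain and other homeobox factors, 38 with a probe set, includes the zinc finger genes sens-2 and sens. It was chosen with earlier results of these data known, so its counts are a description and no test. Lim3 and sens-2 were its only members with all T2 arrays below all T1 arrays and none lay above. T2 replicates 1 and 2 lay below for 2 members and above for 2. Over all genes the shares were 6.38% below and 2.57% above for all T2 arrays, and 11.6% and 7.58% for T2 replicates 1 and 2. The median difference of that list was 0.00 (-0.05 without T2 replicate 3), against -0.03 over all probe sets, and 32 of its members lay in the dimmer part of the array.

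Genes of peptide hormone production and regulated secretion were more often below than above their T1 values in T2. Of 19 such genes with a probe set, 4 had all T2 arrays below all T1 arrays, where 6.38% of all genes did. T2 replicates 1 and 2 were below for 8, where 11.6% of all genes were, and 0 lay above in either comparison. The median log2 difference of the list was -0.16 (-0.20 without T2 replicate 3, against -0.04 over all probe sets). No member passed the adjusted threshold, so these are counts of non-overlapping values. The list was chosen with earlier results of these data known, so the counts describe its members and are no test of the pathway.
Within that list the values were as follows. The transcript of 7B2, the chaperone of the prohormone convertase that cuts neuropeptide precursors, stood at 7.68, 6.74 and 7.15 in T1 and at 5.59, 5.67 and 5.62 in T2, a log2 difference of -1.56 (standard error 0.23, limma adjusted p = 0.358), and again of -1.56 without T2 replicate 3 (limma adjusted p = 0.24). Pal2, a lyase that completes the amidation of peptides, was at 8.77, 7.77 and 7.86 in T1 and at 6.82, 6.37 and 7.19 in T2. Both were low in all T2 arrays, and the T2 values of 7B2 spanned less than 0.1 log2 units. IA-2, a transmembrane protein of dense-core vesicles, was at 8.41, 7.10 and 7.44 in T1 and at 6.31, 7.09 and 5.36 in T2, so that the rounds touched at replicate 2. The vesicle SNARE nSyb was at 7.78, 7.33 and 7.19 in T1 and at 7.04, 6.82 and 6.94 in T2. The vesicle GTPase Rab3 had T2 replicates 1 and 2, at 4.38 and 4.32, below the T1 range of 4.67 to 5.43, with T2 replicate 3 at 4.70. Snap25, a SNARE of the target membrane, went the other way in T2 replicate 3: it was at 4.94 and 5.12 in T2 replicates 1 and 2 and at 7.36 in replicate 3, above the T1 range of 5.28 to 6.85.

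Of the 20 enteroendocrine peptide and regulator genes measured, 2 had all T2 arrays below all T1 arrays and 1 had them above, and T2 replicates 1 and 2 lay below for 3 and above for 1. The shares over all genes were 6.38% below and 2.57% above for all T2 arrays, and 11.6% and 7.58% for T2 replicates 1 and 2. Orcokinin, a neuropeptide gene active in neurons and enteroendocrine cells, was at 7.35, 7.93 and 6.15 in T1 and at 5.48, 5.95 and 5.76 in T2. The homeodomain factor pros, the usual marker of enteroendocrine fate, was at 4.68, 4.26 and 4.86 in T1 and at 4.0, 3.73 and 3.80 in T2. Its values are near the dim end of the array in both rounds, and 14 of the 20 genes were in the dimmer part, among them AstC at 3.19 to 3.27 in T1 and 3.21 to 3.24 in T2. Orcokinin passed without T1 replicate 3, the T1 array nearest to T2 (log2 change -1.91, limma adjusted p = 0.0472) and without it and T2 replicate 3 (-1.93, limma adjusted p = 0.0499). The member above was mirr, described with the midgut factors.

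Some genes of differentiated neurons had the same order. Of 19 neuron and glia markers, 4 lay below in all T2 arrays, nSyb among them, and 0 above, where 6.38% and 2.57% of all genes did. In T2 replicates 1 and 2, 5 lay below and 1 above, where 11.6% and 7.58% of all genes did. Appl, the fly homologue of the amyloid precursor protein, was at 8.13, 7.09 and 6.79 in T1 and at 5.90, 5.99 and 6.09 in T2. The sodium pump subunit nrv3 was at 8.22, 6.68 and 6.10 in T1 and at 5.48, 5.49 and 4.69 in T2. T1 replicate 1 was the highest array for both. Outside the list, nAChRbeta2, a nicotinic acetylcholine receptor subunit, was at 8.68, 8.43 and 8.16 in T1 and at 7.62, 7.05 and 5.47 in T2 (log2 difference -1.71, limma adjusted p = 0.76, and -1.09 without T2 replicate 3, limma adjusted p = 0.334). The pan-neuronal gene elav did not follow this pattern, at 10.52 to 11.03 in T1 and 10.66 to 10.81 in T2, and the glial marker repo was dim in all 6 arrays, at 3.64 to 3.76. The summed level of the 19 markers was 11.84 to 12.25 on the log2 scale in T1 and 11.92 to 12.03 in T2, and whether neural tissue of the host takes part in these differences was not tested.

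**Figure D2:**
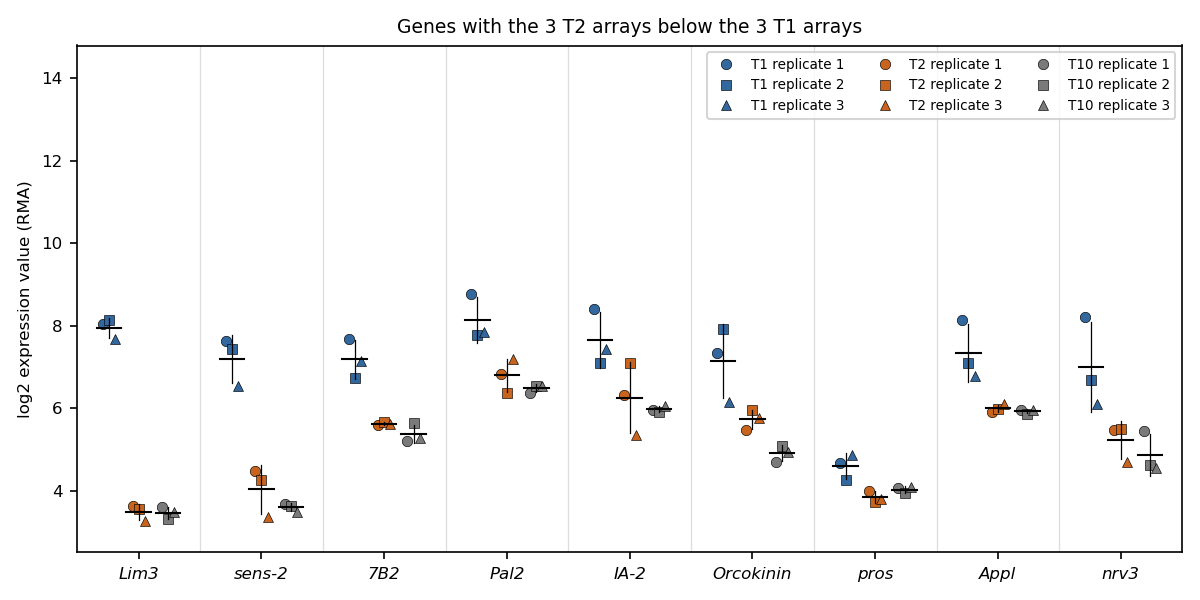
Log2 expression values (vertical axis) of 9 genes in each array; colour gives the round, the marker shape gives the replicate number, horizontal bars are means and vertical lines are 1 SD (n = 3). For all 9 genes the 3 T2 arrays lie below the 3 T1 arrays, by the widest margin for Lim3 (T1 7.67 to 8.13, T2 3.27 to 3.63) and by the smallest for IA-2.

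Other genes were chosen for the size of their negative difference. The neighbouring genes lncRNA:mimi and CG31140 had nearly parallel values: lncRNA:mimi was at 8.89, 9.75 and 7.70 in T1 and at 6.13, 6.69 and 5.94 in T2. CG31140 was at 8.67, 9.33 and 7.53 in T1 and at 6.23, 6.76 and 5.92 in T2, and whether their probe sets read 1 transcript was not tested. The piRNA pathway gene tej was at 7.65, 8.31 and 8.38 in T1 and at 6.91, 6.61 and 5.23 in T2. DZIP1, a ciliary protein, was at 7.69, 6.63 and 6.74 in T1 and at 5.87, 5.67 and 4.75 in T2. T2 replicate 3 was the lowest array for each of these 4 genes, so their differences were smaller without it. The difference was -2.53 with it and -2.37 without it for lncRNA:mimi and -2.21 and -2.02 for CG31140. It was -1.86 and -1.35 for tej and -1.59 and -1.25 for DZIP1. CG10912 was at 6.72, 9.58 and 7.74 in T1 and at 5.96, 5.98 and 5.87 in T2, with most of the spread among the T1 arrays. Kaz-m1, a Kazal-type protease inhibitor, was at 6.29, 6.45 and 6.73 in T1 and at 5.68, 5.04 and 4.97 in T2. None of these 6 genes passed the adjusted threshold in the fit on 9 arrays or without T2 replicate 3.

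Delta and 2 genes of the Notch response had all T2 arrays above all T1 arrays, without passing the adjusted threshold. Delta, the ligand that intestinal stem cells present to their daughters, was at 7.24, 6.72 and 8.03 in T1 and at 9.44, 8.25 and 10.64 in T2. The rounds did not overlap, T2 replicate 3 was the highest array, and T10 was at 10.43, 11.05 and 10.58. The log2 difference was 2.11 (standard error 0.58, limma adjusted p = 0.76), or 1.51 without T2 replicate 3, and the other probe set of Delta gave 2.38 and 1.72. The bHLH repressor E(spl)m3-HLH, a direct Notch target, was at 8.96, 8.82 and 8.53 in T1 and at 10.45, 8.99 and 10.15 in T2. E(spl)m7-HLH, of the same gene complex, was at 6.01, 5.79 and 6.19 in T1 and at 8.01, 6.54 and 9.39 in T2. In both cases T2 replicate 2 was the T2 array nearest to T1, and the T2 spread was several times that of T1. The zinc finger gene klu, expressed in the Notch-active daughters, was at 5.99, 5.57 and 5.56 in T1 and at 8.54, 6.19 and 6.14 in T2.

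Not every component of the pathway was higher. The metalloprotease kuz, which cleaves the Notch receptor on ligand binding, was at 11.24, 10.64 and 10.67 in T1 and at 10.29, 9.88 and 9.04 in T2. It was below T1 in all T2 arrays, and the log2 difference of -1.11 (-0.77 without T2 replicate 3) did not pass the adjusted threshold. Of 20 Notch pathway genes with a probe set, 3 lay above in all T2 arrays and 1 below, where 2.57% and 6.38% of all genes did. The median difference was 0.42, or 0.08 without T2 replicate 3. Of 15 intestinal progenitor genes, 3 lay above, Delta, klu and E(spl)m3-HLH, and 0 below, with a median difference of 0.12 (0.08 without T2 replicate 3). Delta and E(spl)m3-HLH are members of both lists.

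Several genes with the largest positive differences in the fit without T2 replicate 3 are known from the midgut. They were chosen for those values and do not stand for midgut genes as a group. The homeobox gene cad, a conserved regulator of intestinal identity, was near the bottom of the scale in T1, at 3.98, 3.79 and 4.11. In T2 it was at 9.75 and 6.78 in replicates 1 and 2 and at 3.67 in replicate 3, and T10 stood at 3.67 to 4.05. The first 2 T2 arrays thus differed from each other by about 3 log2 units but both lay far above every other array of the series. The log2 difference without T2 replicate 3 was 4.31 (standard error 0.74, limma adjusted p = 0.24). With it, the difference was 2.77 (standard error 1.26, limma adjusted p = 0.76).

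Other genes with this order were also chosen for their values, by size, by p or by the departure of T2 replicate 3. The maltase gene Mal-A6 was at 5.74, 6.26 and 6.39 in T1 and at 11.91, 8.51 and 5.16 in T2. Npc2e, which encodes a sterol-binding protein of the NPC2 family, was at 6.38, 7.71 and 8.61 in T1 and at 11.24, 9.52 and 6.09 in T2. Peritrophin-15b, a component of the chitinous lining of the midgut, was at 4.41, 4.36 and 5.42 in T1 and at 8.06, 7.36 and 4.41 in T2, and it passed without T1 replicate 3 and T2 replicate 3 (log2 change 3.33, limma adjusted p = 0.0163). In each case T2 replicates 1 and 2 were above all T1 arrays and T2 replicate 3 was within or below the T1 range. The mucin-related gene Mur29B was at 6.60, 8.67 and 8.58 in T1 and at 11.29, 9.68 and 5.25 in T2. The lysozyme gene LysX was at 8.29, 8.09 and 11.53 in T1 and at 12.02, 12.39 and 8.20 in T2. T1 replicate 3 was already close to T2 for LysX, and without it and T2 replicate 3 LysX passed the threshold (log2 change 4.02, limma adjusted p = 0.0222). CG6337 showed the same split, at 4.71, 4.70 and 7.87 in T1 and at 10.04, 8.74 and 4.69 in T2 (without these 2 arrays, log2 change 4.69, limma adjusted p = 0.0164). Takl1, a gene related to the kinase Tak1, was at 4.69, 5.22 and 7.02 in T1 and at 8.76, 8.28 and 4.46 in T2, and it passed without them as well (log2 change 3.56, limma adjusted p = 0.0108). CG16995 was at 6.10, 6.55 and 7.30 in T1 and at 9.53, 9.88 and 6.14 in T2, with a log2 difference without T2 replicate 3 of 3.06 (standard error 0.33, limma adjusted p = 0.0868). Without T1 replicate 3 as well it passed (log2 change 3.38, limma adjusted p = 0.00714). CG13075 was at 6.0, 6.71 and 7.65 in T1 and at 10.53, 8.93 and 7.22 in T2. Among the genes of this paragraph, CG30148 alone stayed above T1 in T2 replicate 3, at 4.34, 4.08 and 4.31 in T1 and at 8.07, 6.65 and 4.95 in T2, and it too passed without T1 replicate 3 and T2 replicate 3 (log2 change 3.15, limma adjusted p = 0.0499).

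As a list, enterocyte genes did not share one direction. Of 21 with a probe set, 5 had T2 replicates 1 and 2 above all T1 arrays and 2 below, and the median difference without T2 replicate 3 was -0.01, while 16 of the 21 were in the dimmer part of the array. The intestinal lipase gene Lip4 was among those below, at 10.39, 10.26 and 10.86 in T1 and at 10.09, 9.29 and 5.07 in T2. The maltase gene Mal-A1 was at 5.05, 5.62 and 5.14 in T1 and at 4.55, 4.80 and 4.53 in T2, against the difference in Mal-A6. Among regional factors, mirr, an Iroquois homeobox gene, was at 6.90, 7.17 and 8.07 in T1 and at 10.87, 9.63 and 8.15 in T2, and its other probe set gave a log2 difference of 2.13 beside 2.17 (2.84 and 2.87 without T2 replicate 3). The homeobox gene exex was at 7.12, 7.55 and 8.34 in T1 and at 10.03, 8.60 and 4.02 in T2. The POU factor nub, a marker of enterocytes, was at 6.68, 6.96 and 7.34 in T1 and at 8.69, 7.83 and 8.08 in T2, so that it was above in all T2 arrays. A second probe set of nub, at 5.31, 5.45 and 5.77 in T1 and 6.76, 5.99 and 5.98 in T2, was also above. Another overlapped, at 3.81, 4.68 and 6.08 in T1 and 8.05, 6.89 and 5.33 in T2. The median difference of 26 midgut identity and regional factors was 0.60, or 0.00 without T2 replicate 3. Of these, 8 had T2 replicates 1 and 2 above T1 and 2 below, and 2 had all T2 arrays above and 1 below. Beside both lists, the shares over all genes were 7.58% above and 11.6% below for T2 replicates 1 and 2, and 2.57% and 6.38% for all T2 arrays.

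The 4 genes of the smooth septate junction, the occluding junction of midgut epithelium, had one shared order of arrays. The membrane protein mesh was at 8.89, 10.15 and 11.21 in T1 and at 12.17, 11.85 and 5.63 in T2. Its partner Tsp2A, a tetraspanin, was at 9.38, 10.27 and 11.45 in T1 and at 12.20, 12.13 and 8.03 in T2. Ssk was at 11.83, 12.46 and 12.87 in T1 and at 13.17, 13.14 and 11.29 in T2, and hoka was at 10.01, 10.78 and 11.91 in T1 and at 12.54, 12.46 and 8.19 in T2. For all 4, T2 replicates 1 and 2 were above every T1 array, T1 replicate 3 was the highest T1 array, and T2 replicate 3 was below every T1 array. The median difference was 1.70 without T2 replicate 3 and 0.15 with it, against -0.04 and -0.03 over all probe sets. Ssk is near the top of the scale, where its range is compressed. A second probe set of mesh, much dimmer, was at 4.48, 4.53 and 4.50 in T1 and at 5.63, 5.58 and 4.32 in T2, and it passed without T1 replicate 3 and T2 replicate 3 (log2 change 1.10, limma adjusted p = 0.0197).

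**Figure D3:**
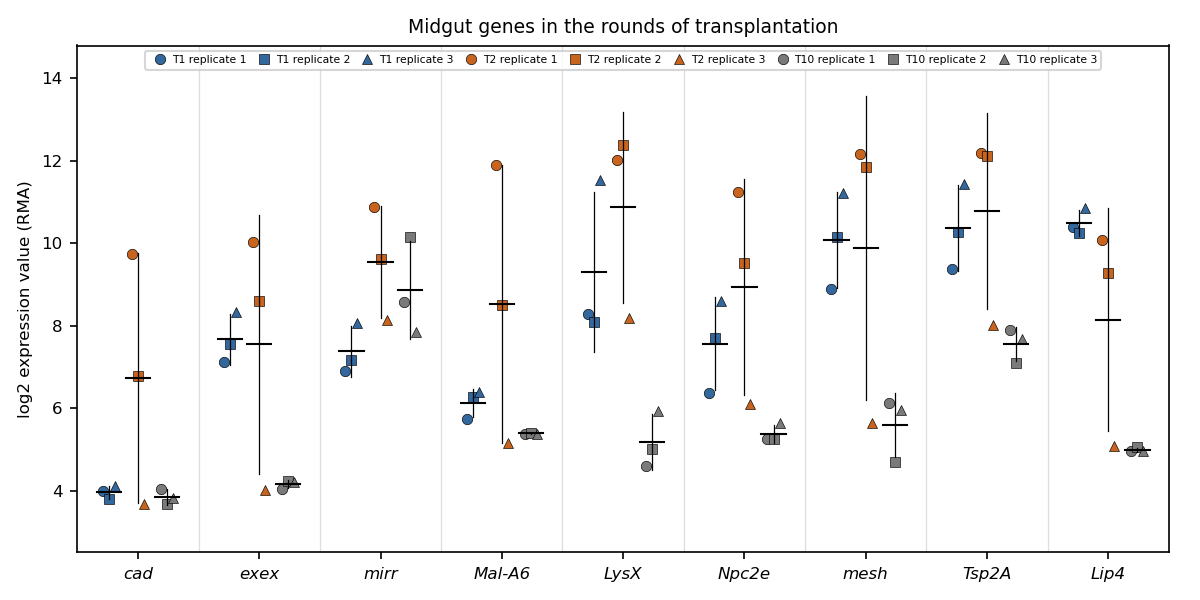
Log2 expression values (vertical axis) of 9 midgut genes in each array; colour gives the round, the marker shape gives the replicate number, horizontal bars are means and vertical lines are 1 SD (n = 3). T2 replicates 1 and 2 (orange circles and squares) are high, as for cad at 9.75 and 6.78, while T2 replicate 3 (orange triangles) is near the T10 arrays except for LysX, and Lip4 is low in T2 replicate 3 without being high in T2 replicates 1 and 2.

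Of 26 genes of the pleated septate junction, the form found in ectodermal epithelia, 24 had a higher mean in T2 (21 without T2 replicate 3). Over all 11982 genes, 5207 had a higher mean (5061 without T2 replicate 3). The list median was 9.82, 9.85 and 10.08 in T1 and 9.94, 10.28 and 10.895 in T2, so T2 replicate 1 was within the T1 range. The median difference was 0.35 (0.15 without T2 replicate 3), and 1 gene of the list had all T2 arrays above all T1 arrays. That gene was bark, which acts at tricellular contacts, at 9.80, 10.12 and 10.13 in T1 and at 10.41, 10.33 and 11.00 in T2. E-cadherin, encoded by shg and a direct target of repression by Snail, was at 9.89, 9.76 and 10.50 in T1 and at 10.82, 10.51 and 10.87 in T2. The T2 arrays were all above T1 by as little as 0.01 log2 units, and the difference of 0.68 (standard error 0.21) did not pass (limma adjusted p = 0.76, and 0.895 without T2 replicate 3, at 0.61). Of 13 cadherins 2 were above in all T2 arrays, shg and Cad86C, and 0 below, where 2.57% and 6.38% of all genes were. The median difference of the cadherins was 0.51 (-0.06 without T2 replicate 3). The median over 20 apical polarity and adherens junction genes was 0.18 (0.09 without T2 replicate 3). Without T1 replicate 3 and T2 replicate 3, 2 probe sets of pyd, the fly ZO-1, were called higher in T2 (log2 changes 2.08 and 2.31, limma adjusted p = 0.0153 and 0.0187), and so was 1 of scrib, a polarity gene (log2 change 2.54, limma adjusted p = 0.0197). For pyd, T1 replicate 3 was at 9.56 and 8.54, near T2 replicates 1 and 2 (9.83 and 10.04, and 9.15 and 8.92). For scrib, T2 replicate 3 was at 7.22, within the T1 range of 7.10 to 8.83. These passes are a description, since both arrays were left out for their place in the whole profile.

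The epithelial genes that the study follows to T10 were higher in T2 replicate 3 than in the other T2 arrays. The chitin deacetylase gene verm was at 7.20, 6.45 and 7.99 in T1 and at 6.60, 8.55 and 12.50 in T2. The apical surface gene sas was at 7.01, 6.09 and 9.93 in T1 and at 6.09, 9.74 and 11.99 in T2. Cad74A, a cadherin, was at 6.24, 6.04 and 8.37 in T1 and at 5.70, 7.60 and 11.28 in T2. Replicate 3 was the highest array of its round in both T1 and T2 for these 3 genes, and T2 replicate 1 was below the T1 mean. Without T2 replicate 3 the log2 difference was 0.36 for verm, 0.24 for sas and -0.23 for Cad74A, against 2.0, 1.60 and 1.31 with it. The synaptotagmin-like gene btsz was at 8.69, 8.60 and 9.57 in T1 and at 9.19, 10.07 and 10.89 in T2, and crb, the apical determinant, was at 9.20, 9.59 and 9.56 in T1 and at 9.56, 9.87 and 10.37 in T2. The rounds overlapped for all 5 genes, and none passed the adjusted threshold. The cadherin gene ft, which the study also follows, was not analysed here, because the annotation used gives it no probe set of its own.

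All T2 arrays, replicate 3 included, lay above all T1 arrays for 308 genes (2.57%), of which the following were chosen by size or p. The cytochrome P450 gene Cyp6a23 had the smallest p of any probe set higher in T2, at 7.11, 7.01 and 7.70 in T1 and at 9.01, 8.99 and 8.92 in T2. The T2 values agreed within 0.09 log2 units, and the log2 difference of 1.70 (standard error 0.20) missed the threshold (limma adjusted p = 0.151, and 0.126 without T2 replicate 3, at 1.73) and passed without T1 replicate 3 (1.91, limma adjusted p = 0.0198). The protein O-mannosyltransferase gene tw was at 7.73, 8.12 and 9.22 in T1 and at 9.73, 10.45 and 10.05 in T2. The gene rgn was at 8.76, 8.33 and 10.11 in T1 and at 11.04, 11.17 and 10.79 in T2. Both passed without T1 replicate 3, the highest T1 array of each (log2 changes 2.15 and 2.46, limma adjusted p = 0.0409 and 0.0413), as they and Cyp6a23 did without T2 replicate 3 as well (limma adjusted p = 0.0364, 0.028 and 0.0187). CG13360 was at 4.93, 5.57 and 6.39 in T1, at 7.71, 8.08 and 6.69 in T2 and at 5.36 to 5.50 in T10, and it passed without T1 replicate 3 and T2 replicate 3 (log2 change 2.65, limma adjusted p = 0.0187). The spermatocyte transcription factor gene sa was at 6.34, 6.35 and 7.04 in T1 and at 8.22, 8.39 and 8.33 in T2. CG34417 had 3 probe sets, with log2 differences of 1.13 to 2.03 (0.70 to 1.70 without T2 replicate 3), and its brightest was at 8.17, 8.57 and 10.04 in T1 and at 10.06, 11.00 and 11.82 in T2. CG34301 was at 4.82 to 6.11 in T1 and 6.82 to 7.83 in T2, and CG5895 at 4.67 to 5.25 in T1 and 5.54 to 7.59 in T2.

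**Figure D4:**
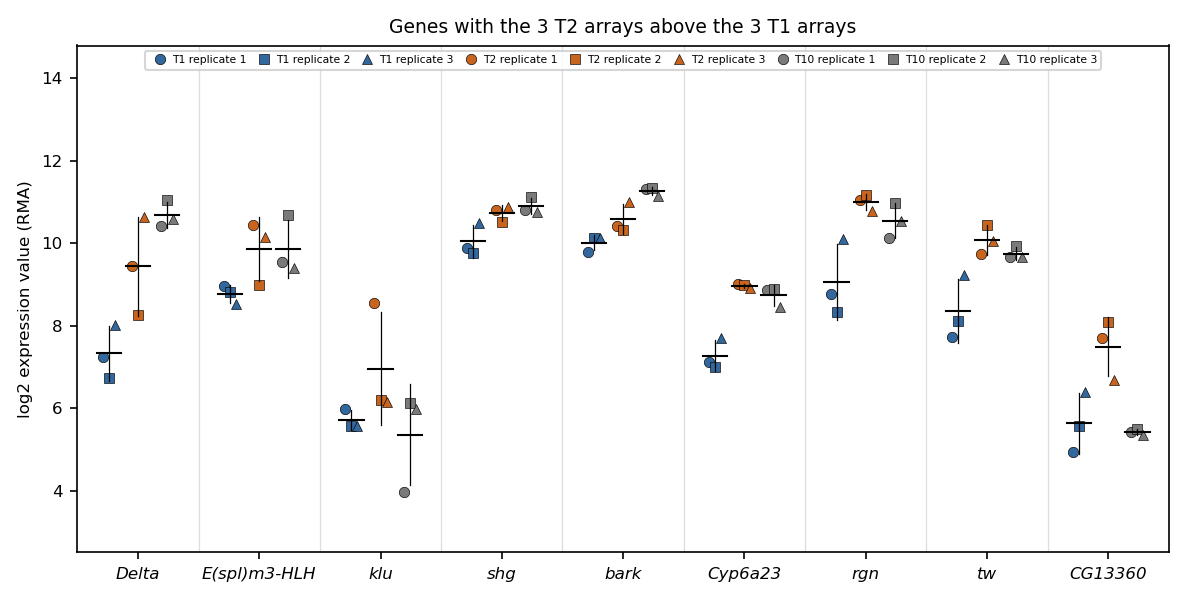
Log2 expression values (vertical axis) of 9 genes in each array; colour gives the round, the marker shape gives the replicate number, horizontal bars are means and vertical lines are 1 SD (n = 3). The 3 T2 arrays lie above the 3 T1 arrays for all 9 genes, tightly for Cyp6a23 (8.92 to 9.01) and widely for Delta (8.25 to 10.64), and T1 replicate 3 (blue triangles) is the highest T1 array for 7 of them.

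With T1 replicate 3 left out, 25 probe sets were called lower in T2 and 9 higher. Since this array was singled out after its correlations had been seen, the calls are given as a description, and the genes below are examples picked after their values were seen. The mevalonate pathway kinase Pmvk was at 10.17 and 10.21 in T1 replicates 1 and 2, at 8.53 in T1 replicate 3 and at 8.50, 8.87 and 8.72 in T2. Pbgs, of heme synthesis, was at 11.07, 10.90 and 9.09 in T1 and at 9.75, 9.67 and 9.30 in T2. The DNA repair gene Ku80 was at 10.23, 10.44 and 9.22 in T1 and at 9.24, 9.36 and 9.44 in T2. In all 3 genes T1 replicate 3 was within or below the T2 range. The kinase gene Pask was at 7.23, 7.70 and 5.28 in T1 and at 5.55, 5.67 and 5.54 in T2, and the dolichol synthesis gene Dhdds was at 10.89, 10.87 and 9.58 in T1 and at 9.84, 9.86 and 9.62 in T2. Among those called higher were Sema5c, a semaphorin, at 3.39, 3.15 and 5.83 in T1 and at 5.83, 5.36 and 5.85 in T2, and the splicing regulator mbl, at 6.94, 7.40 and 8.40 in T1 and at 8.58, 8.92 and 9.03 in T2.

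The arrays left out were placed on these genes as a description only, because both were left out for their place in the whole profile. Of the 34 probe sets called without T1 replicate 3, that array was nearer to the T2 mean than to the mean of T1 replicates 1 and 2 at 29, with a median position of 0.87 on a scale where 0 is the T1 mean and 1 the T2 mean. Of the 126 called without T1 replicate 3 and T2 replicate 3, 33 of them shared with the 34, T1 replicate 3 was nearer to T2 at 86 and T2 replicate 3 was nearer to T1 at 79. The latter split by direction: T2 replicate 3 was nearer to T1 at 72 of the 90 called higher and nearer to T2 at 29 of the 36 called lower. T10 was not placed on this scale, so low values that T2 replicate 3 shares with T10 are not told apart here. Among these selected probe sets T2 replicate 3 was low at most of those called lower and did not share most of those called higher. Examples of the latter were Whamy, of the WASP family, at 6.36, 6.79 and 7.85 in T1 and at 9.15, 9.07 and 6.08 in T2, the lipocalin NLaz at 5.53, 5.28 and 6.79 in T1 and at 8.12, 8.09 and 5.40 in T2, and the adjacent-numbered CG18745, CG18746 and CG18747, with log2 changes of 2.84, 2.31 and 2.31.

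The widest departures of T2 replicate 3 are described without a test, since they chose the genes named. Of the 741 probe sets past 2 log2 units, 430 were higher and 311 lower than the mean of T2 replicates 1 and 2. Among the 8 highest genes, the LIM-homeodomain gene ap was at 4.09 and 4.69 in T2 replicates 1 and 2 and at 10.25 in replicate 3, with T1 at 4.19 to 4.51 and T10 at 9.01 to 11.86. The Toll ligand family gene spz3 was at 4.37 and 5.42 against 11.29, and the chitinase gene Cht7 at 3.98 and 5.37 against 10.36. The others were nw, CG12581, slf, hui and CG15279, the last higher by 5.49, while kkv, the chitin synthase gene next outside this group, was higher by 5.46. The 8 lowest were mesh, CG9380, CG32115, CG43693, exex, Mur29B, Mal-A6 and CG13321, the last lower by 4.84, and the next was the progenitor factor Sox100B, lower by 4.77. Of these low genes CG9380 has another, dimmer probe set, at 5.49, 6.35 and 7.30 in T1 and at 8.97, 8.50 and 4.66 in T2. That probe set passed without T1 replicate 3 and T2 replicate 3, as higher in T2 replicates 1 and 2 (log2 change 2.81, limma adjusted p = 0.0376). The brighter probe set, which stands for the gene, did not pass. CG32115 was at 10.49, 9.50 and 9.44 in T1, at 10.15 and 9.30 in T2 replicates 1 and 2 and at 4.21 in replicate 3, with T10 at 3.86 to 4.25. For 7 of the 8 high genes T2 replicate 3 lay within the T10 range, the exception being nw, at 12.49 against 12.62 to 13.08.

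Among the largest negative differences in T2 replicates 1 and 2 were 2 genes that went the other way in replicate 3. The decarboxylase-like gene amd, known from cuticle formation, was at 8.17, 8.94 and 8.60 in T1 and at 5.76, 6.70 and 10.10 in T2, a log2 difference of -2.34 (standard error 0.32, limma adjusted p = 0.126) without replicate 3 and -1.05 with it. Tmhs, a tetraspan membrane protein gene, was at 8.36, 8.31 and 8.57 in T1 and at 6.91, 6.71 and 9.96 in T2. The summed level of 22 trachea and chitin genes was 11.58 to 12.81 on the log2 scale in T1, 12.15 and 12.55 in T2 replicates 1 and 2 and 14.91 in T2 replicate 3, beside 14.69 to 15.42 in T10.

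Markers of fat body, muscle, hemocytes and immunity had their highest median of the 6 arrays in T2 replicate 2. The median of 20 fat body markers was 5.56 to 5.82 in T1, 6.12 and 5.74 in T2 replicates 1 and 3, and 8.11 in T2 replicate 2, where 9 of the 20 had their highest value of the 6 arrays, as did 10.4% of all genes. The lipoprotein precursor gene apolpp was at 9.93 in T2 replicate 2 against 4.57 to 5.88 in the other 5 arrays, and fit was at 8.48 against 4.48 to 4.82. The larval storage protein gene Lsp2 was dim throughout, at 3.82 to 4.28. The yolk protein gene Yp2 was at 7.19, 5.60 and 5.95 in T1 and at 8.10, 10.55 and 6.43 in T2. The median of 20 muscle markers was 5.11, 5.08 and 6.85 in T1 and 4.94, 7.44 and 4.94 in T2, so that T1 replicate 3 and T2 replicate 2, the arrays with the most similar profiles across the rounds, were both high. Antimicrobial and immune genes had a median of 5.70, 7.92 and 5.76 in T2 and 5.91 to 6.27 in T1, led by the stress gene TotC at 9.08 in T2 replicate 2 against 3.48 to 4.11 elsewhere. Hemocyte markers had a median of 5.82 in T2 replicate 2 and of 4.80 to 5.21 in the other 5 arrays. The other tissue lists ran differently, with 1 or 2 members of each highest in T2 replicate 2. The summed level of 14 Malpighian tubule and hindgut markers was 12.19 to 12.58 on the log2 scale in T1 and 12.69 to 12.73 in T2, and that of 22 ovary and germline markers was 10.61 to 10.99 in T1 and 10.51 to 11.12 in T2. The summed level of 18 immune genes was highest in T1 replicate 1 (13.01) and next in T2 replicate 2 (12.91). Irk2, a potassium channel gene of the Malpighian tubule list, was at 6.21, 6.26 and 6.38 in T1 and at 9.20, 7.63 and 5.63 in T2, the order seen for cad, Mal-A6 and exex. The part of host tissue in the differences above was not tested. The glutamate transporter family gene dmGlut, at 6.80, 7.32 and 8.00 in T1 and at 10.06, 10.72 and 8.21 in T2, and the laminin gene LanA, at 10.65 to 11.49 in T1 and 11.50 to 11.64 in T2, were above T1 in all T2 arrays.

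**Figure D5:**
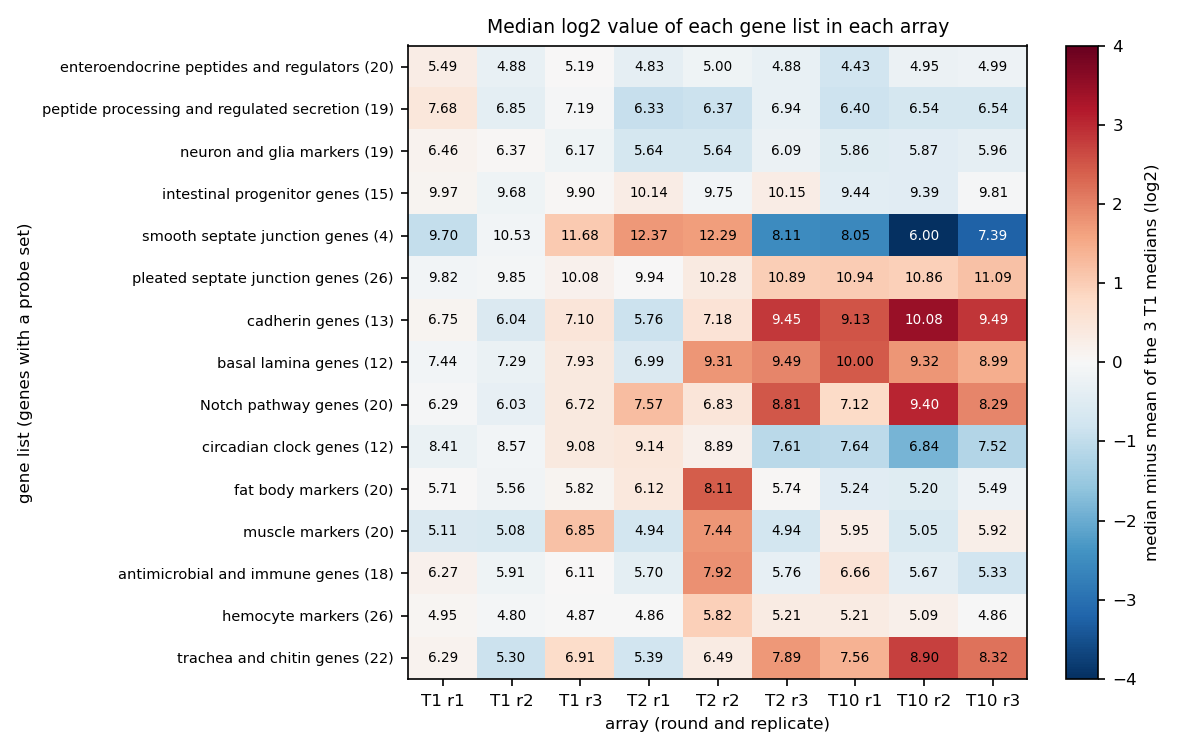
Median log2 value (printed in each cell) of 15 gene lists in the 9 arrays, listed by round and replicate (r); the colour gives the median minus the mean of the 3 T1 medians, and the number of genes with a probe set stands after each list. Smooth septate junction genes are highest in T2 r1 and r2 (12.37 and 12.29) and low in T2 r3 (8.11), and fat body, muscle, immune and hemocyte markers are highest in T2 r2.

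Over the 36 lists, 568 of 724 entries had a named probe set, and Lim3 was the only member past the adjusted threshold in either fit. List medians of the log2 difference ran from -0.50 to 1.31 with T2 replicate 3 and from -0.20 to 1.70 without it. The median of 31 cell cycle and DNA replication genes was 0.05 (-0.04 without T2 replicate 3) and that of 19 Ras and EGFR pathway genes 0.00 (-0.09). Heat shock and chaperone genes had a median of -0.30 (7 genes), glycolysis genes of -0.22 (14 genes, 13 lower) and circadian clock genes of -0.23 (12 genes, 11 lower). These last 3 medians were, without T2 replicate 3, -0.09, -0.05 and -0.06. Without that array 10 of the 14 glycolysis genes and 7 of the 12 clock genes were lower. Over all 11982 genes, 5207 were higher and 6751 lower with that array, and 5061 and 6920 without it. Of 12 basal lamina genes 10 had a higher mean in T2 (9 without T2 replicate 3), with a median difference of 0.65 (0.72 without T2 replicate 3). Among the 12, 1 had all T2 arrays above all T1 arrays. The list median was 7.44, 7.285 and 7.93 in T1 and 6.985, 9.31 and 9.49 in T2, so T2 replicate 1 was below every T1 array. Its members vkg, Col4a1 and Pxn are also on the hemocyte list, whose median was highest in T2 replicate 2. The EMT list gave a median of -0.03 (-0.08 without T2 replicate 3) over 9 genes, with twi, the mesodermal EMT factor, dim at 4.15 to 4.29 in T1 and 4.07 to 4.25 in T2. Mmp2, a matrix metalloprotease, was at 9.58, 9.70 and 9.37 in T1 and 9.04, 9.10 and 8.75 in T2. The other, dimmer probe set of Mmp2 overlapped between the rounds, with a log2 difference of -0.08 (0.01 without T2 replicate 3).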

How the data were processed

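Gene expression was measured on 9 Affymetrix arrays, 3 each of transplant rounds T1, T2 and T10. The authors ran the R packages affy and affyPLM with RMA background correction and summarization and deposited log2 values, rounded to 2 decimals. Neither versions nor a genome build were given in the sources used here. No sample was excluded by the authors.

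The 183 control probe sets were left out and 18769 were tested without further scaling or filtering. The platform annotation gives 13647 probe sets 1 gene symbol, 402 several and 4720 none, and the last are unnamed here. Entrez identifiers served to update 13544 symbols from RefSeq (assembly Release 6 plus ISO1 MT), used for names and neighbours only. Where a gene had several, the probe set of highest mean stands for it. T2 was compared with T1 in R 4.3.3 with limma 3.58.1 (lmFit, eBayes), all 9 arrays sharing 1 estimate of spread, without covariates and at an adjusted p (Benjamini-Hochberg) under 0.05, and again without T2 replicate 3, in which case T2 holds 2 arrays. The script was tested on simulated data. The members, lists and rules were chosen with earlier results of these data known.

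Genes were named by rule: those past the threshold, the 10 largest rises and falls at an unadjusted p under 0.01 in each fit (with no overlap in the fit on 9 arrays), the 8 widest departures of T2 replicate 3 each way, the leading members of each list, and the genes the study names. Other genes named, those called without T1 replicate 3 included, were chosen after their values were seen. The number of arrays limits the precision. Alternatives changed which arrays entered, blocked on replicate number (fixed or random), or changed moderation, weights, filter, floor, scaling, threshold and probe sets.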

Additional observations from a re-analysis of the deposited data

How the results depend on the processing

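The count of 1 probe set lower and 0 higher was the same in the fits on T1 and T2 arrays alone, with the replicate block (0 higher, 1 lower), with the replicate number as random effect, after centring and after quantile normalization. Leaving out single arrays or all arrays of 1 number gave 0 to 18 higher and 0 to 25 lower in the fit on 9 arrays, and 0 to 90 higher and 0 to 36 lower without T2 replicate 3. The largest counts came without T1 replicate 3, except the 18 higher, since on 9 arrays that setting gave 9 higher. With T2 replicate 3 out, leaving out T2 replicate 1 or 2 as well gave 60 or 16 higher, with 1 T2 array assumed to vary like the other rounds. The other settings that moved a count gave, on 9 arrays, 1 higher and 4 lower with array weights, 2 lower with trend and robust moderation, 2 lower with a floor at the 10th percentile, 2 lower at an adjusted p under 0.1, and 0 lower without the dim probe sets. In the fit lacking T2 replicate 3 they gave 9 higher and 3 lower with weights, 2 higher with trend and robust moderation, 1 higher with the floor, 7 higher and 3 lower at an adjusted p under 0.1, and 0 lower without the dim probe sets. The cause was not tested, except that Lim3 is itself dim. Same-numbered T1 and T2 arrays deviated together at r = 0.02, -0.12 and 0.10 for numbers 1, 2 and 3, and no source says what a shared number marks, so the numbers were not taken as pairs. Cad74A ran from -0.23 (without T2 replicate 3) to 2.56 over the arrays left out, against 1.31, and another probe set of btsz gave -0.39 against 1.1. Of 1548 list medians under alternatives, 1447 moved by less than the spread between T2 arrays and 101 by more. RMA values carry no detection call, so low values limit the smaller differences.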
